A study of Mus musculus with 24 samples.

Results

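Dusp1, Dusp4, Dusp5, Dusp6, Spry1, Spry2, Spry4, Spred1, Spred2 and Spred3 are the mouse genes of the main negative feedback on MAP kinase signalling, and they were followed here in the hippocampal CA1 region after status epilepticus (SE), a prolonged seizure. The genes were chosen by symbol, with earlier results of these data known. Their 10 symbols matched 10 of the 18647 genes in the table, each by its Ensembl identifier, and all 10 passed the filter on low counts that left 18153 genes for testing.

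MAP kinases carry signals from receptors at the cell surface to the nucleus, and the best known branch runs from growth factor receptors through Ras, Raf and MEK to ERK. ERK activity induces genes whose products then dampen the same pathway. Dusp proteins are phosphatases that remove the activating phosphates from MAP kinases: Dusp1 (nuclear, acting on p38, JNK and ERK), Dusp4 and Dusp5 (nuclear) and Dusp6 (cytoplasmic, with a preference for ERK). Sprouty proteins (Spry1, Spry2, Spry4) act upstream, between receptor tyrosine kinases and Raf, and Spred proteins (Spred1, Spred2, Spred3) lower the activity of Ras and Raf, in part by bringing the Ras inhibitor neurofibromin to the membrane. In neurons several of these genes are known to respond to strong activity.

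The study sequenced polyadenylated RNA from microdissected CA1 tissue of adult C57Bl/6N mice. All mice were given scopolamine methyl nitrate first and diazepam later. SE mice received 335 mg/kg pilocarpine hydrochloride in between, were kept only if they developed SE, and were sampled at 5 times, named here by the hours after SE (SE 6 h, SE 12 h, SE 24 h, SE 36 h and SE 72 h). Control mice (Ctr 12 h, Ctr 36 h, Ctr 72 h) received saline in its place, with no control group at 6 or 24 h. There were 24 libraries, 3 in each of 8 groups, and nothing in the labels says that the replicates were separate animals, so p-values measure the spread between these samples.

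The libraries held 2663936 to 30133731 counts, with a median of 13521590. Markers of CA1 pyramidal cells (Wfs1, Fibcd1, Pou3f1, Mpped1) summed to between 293 and 1407 CPM (counts scaled to the size of each library) in every library. At 12 h their SE and control ranges overlapped (555 to 742 and 704 to 1107 CPM). The ranges did not overlap at 36 h (664 to 827 and 1324 to 1407 CPM) or at 72 h (293 to 644 and 753 to 987 CPM). Of these 4 markers, those called lower than control were 0, 0, 1, 3 and 2 from 6 to 72 h, and 0 were called higher. Markers of sensory ganglia (Scn10a, Scn9a, Trpv1, Isl1, Prph, Calca), which CA1 should lack, summed to 6.47 to 50.2 CPM in 18 libraries and to over 200 CPM in 6, namely SE 6 h replicate 3, SE 12 h replicate 1, SE 36 h replicate 3, SE 72 h replicates 1 and 2 and, with 1224 CPM, Ctr 72 h replicate 2. The last also stood apart on the factor of unwanted variation (-0.80 against 0.37 and 0.38 in the other Ctr 72 h libraries). Sample numbers given with the libraries fall into 3 ranges (92 to 104, 109 to 122 and 162 to 169) whose meaning is not stated. All 3 Ctr 72 h libraries lie in the last range, which no SE 72 h library shares, so this range and the group cannot be told apart there. All 3 SE 24 h libraries lie in the first range, which holds no control library, and there too the range and the group cannot be told apart. Summed neuronal markers (Rbfox3, Snap25, Syt1, Tubb3, Map2) were 5486 to 7393 CPM in controls and 3628 to 5247 CPM in SE libraries from 12 h on, and astrocyte markers were 5132 to 13319 CPM in the 15 SE libraries, highest at SE 72 h, beside 3536 to 4879 CPM in controls. Single astrocyte markers went both ways. Of 6, those called higher than control were 1, 2, 2, 3 and 3 from 6 to 72 h, and those called lower 0, 1, 3, 3 and 0. The rule for calls and the percentages of all genes are given below. Dentate granule cell markers (Prox1, Dsp, C1ql2) were highest in SE 72 h replicate 1, at 229 CPM. The part of these in the results was not tested. In bulk tissue, fewer cells of a type and less RNA per cell cannot be told apart.

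The promoter windows of Dusp1, Dusp5 and Spred2 are shown because they were the ones with matches to the motifs searched, so that what they share can be read. Each is the 250 bases before the RefSeq transcription start on the GRCm38.p6 build, written 5′ to 3′ on the gene's strand, and 8 of the 10 genes had an entry there that could be used. Capitals mark matches to the cAMP response element (CRE, TGACGTCA), its core (TGACGT or, on the other strand, ACGTCA), the E-box (CACGTG) and the CArG box, the core of the serum response element.
Dusp1 (chr17:26508473-26508722, minus strand): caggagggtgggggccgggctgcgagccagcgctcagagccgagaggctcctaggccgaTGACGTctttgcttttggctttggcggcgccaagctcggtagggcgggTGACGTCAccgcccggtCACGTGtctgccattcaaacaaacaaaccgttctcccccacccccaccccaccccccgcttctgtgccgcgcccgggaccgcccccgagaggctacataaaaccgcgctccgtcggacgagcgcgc
Dusp5 (chr19:53528895-53529144, plus strand): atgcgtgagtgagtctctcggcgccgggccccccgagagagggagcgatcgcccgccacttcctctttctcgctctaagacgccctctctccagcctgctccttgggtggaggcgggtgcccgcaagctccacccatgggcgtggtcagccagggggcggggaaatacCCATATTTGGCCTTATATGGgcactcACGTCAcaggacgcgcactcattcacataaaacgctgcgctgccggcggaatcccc
Spred2 (chr11:19924192-19924441, plus strand): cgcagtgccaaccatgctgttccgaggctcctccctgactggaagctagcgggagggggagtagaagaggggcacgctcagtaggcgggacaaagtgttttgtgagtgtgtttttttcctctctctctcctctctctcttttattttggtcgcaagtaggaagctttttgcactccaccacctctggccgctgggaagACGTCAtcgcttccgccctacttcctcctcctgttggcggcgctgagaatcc

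The full CRE was found in Dusp1 alone of the 8 windows, 143 bases before the start, and in 1.55% of the 32851 RefSeq promoter windows of the same length. An E-box, present in 6.02% of all windows, lay 126 bases before the Dusp1 start. The CRE core, which every full CRE contains, was held by 3 of the 8 windows (Dusp1, Dusp5 and Spred2) and by 6.47% of all windows. Dusp5 held 2 adjoining CArG boxes, 82 and 72 bases before its start, against at least 1 in 1.47% of all windows. The CRE core and the CArG box were added to the search after these sequences had been read. No window of the 8 held the AP-1 motif (TGACTCA or TGAGTCA, in 4.46% of all windows), the ETS motif (CCGGAAGT, in 2.88%) or the EGR motif (GCGTGGGCG, in 0.536%), searched on both strands. These matches are letters in a window and were not tied to binding.

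In control CA1, per length of exon, Dusp6 was the most abundant of the 10 genes and Spry1 the least. Exon lengths were taken from the GENCODE M39 annotation, whereas the authors counted on M26, so the lengths may differ from those counted. As the median of the 9 control libraries, in CPM per kilobase of exon, the levels were 26.2 for Dusp6, 22.5 for Spred1, 18.2 for Spred2 and 13.2 for Spred3. They were 9.28 for Dusp5, 7.62 for Dusp1 and 7.46 for Spry2, and then 3.88 for Dusp4, 2.65 for Spry4 and 1.33 for Spry1. Spred2, Spred1, Spred3 and Spry2 were even across controls (highest over lowest library 1.25, 1.40, 1.49 and 1.49), and Spry1, Dusp4 and Dusp1 were uneven (4.56, 3.42 and 3.28). No gene of the 10 was called between control groups in any of the 3 pairs. The percentage of all genes called was 0 for Ctr 36 h against Ctr 12 h, where edgeR's quasi-likelihood test gave 1 of the 10 an unadjusted p under 0.05. It was 0.931 and 1.96 (169 and 356 genes) for Ctr 72 h against Ctr 12 h and Ctr 36 h, where that test gave 0. Without the factor of unwanted variation 10 and 42 genes were called in these pairs. The gene with the unadjusted p under 0.05 was Dusp6, at 75.2, 40.2 and 55.8 CPM in Ctr 12 h and 111, 117 and 109 CPM in Ctr 36 h, a log2 fold change (log2FC) of 0.98 ± 0.35 (s.e.) with an adjusted p of 1 in edgeR.

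**Figure D1:**
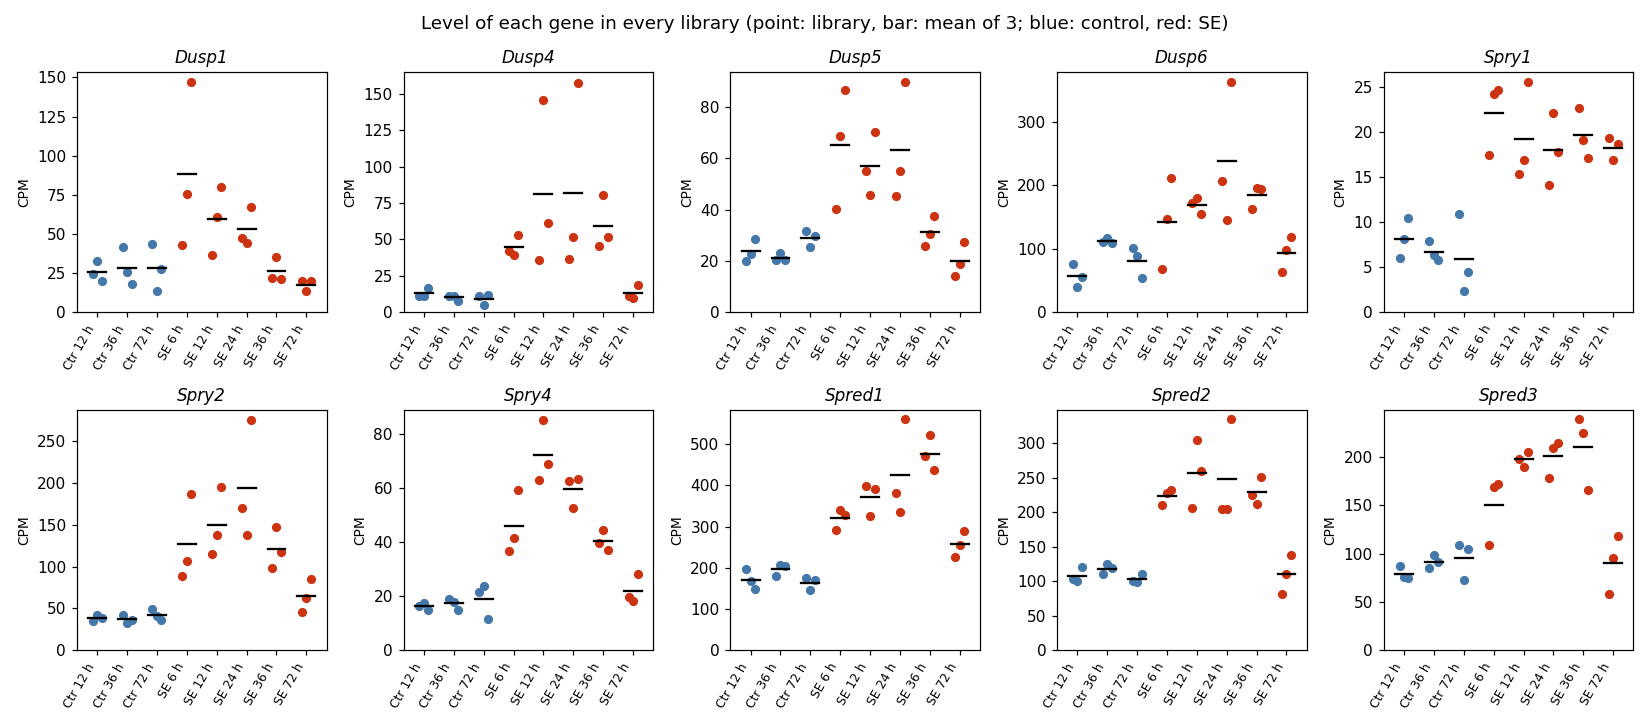
Level of each of the 10 genes in CPM (vertical axis, from 0, with its own range in each panel) in every library of the 8 groups (horizontal axis), with a point for each library and a bar for the mean of 3. Spry1 and Spred1 had all 15 SE libraries above all 9 controls, and Dusp1 had 7 of 15.

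The 10 genes were higher than control throughout the first day after SE. A gene was called when the adjusted p of edgeR's quasi-likelihood test was at most 0.05 and the log2FC at least 0.66 in size. At 6 h, set against the mean of the 3 control groups, 10 of 10 were called higher, where 15.8% of all genes were. At 12 h against Ctr 12 h the count was 10 of 10 against 13.9%, and at 24 h against the mean of the controls it was 10 of 10 against 14.9%. The comparisons at 6 and 24 h share their controls with each other and with the matched ones. Their median log2FC was 1.40, 1.29 and 1.40 at 6, 12 and 24 h, beside 0.06, 0.01 and 0.04 over all genes. At 36 h 7 of 10 were called higher (12.7% of all genes) and at 72 h 1 of 10 (15.2%), with medians of 1.20 and 0.19 beside 0.00 and 0.10. All SE libraries were above all compared controls for 7, 10, 10, 9 and 2 of the 10 genes from 6 to 72 h, where this held for 12.9%, 24.5%, 13.6%, 25.8% and 19.4% of all genes. Summed interneuron markers (Gad1, Gad2, Sst, Pvalb) were 834 to 1282 CPM from SE 6 h to SE 24 h and 485 to 754 CPM in controls, then 647 to 782 CPM at SE 36 h and 356 to 597 CPM at SE 72 h. Of these 4 markers, 1 was called higher at each of 6, 12 and 24 h, and 0 at 36 and 72 h, with 0 lower throughout. Their median log2FC was 0.61, 0.14 and 0.48 at 6, 12 and 24 h. The part of interneuron markers in the levels of the 10 genes was not tested. No gene of the 10 was called lower than control at any time, where 6.21%, 11.4%, 9.21%, 8.91% and 4.2% of all genes were.

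**Figure D2:**
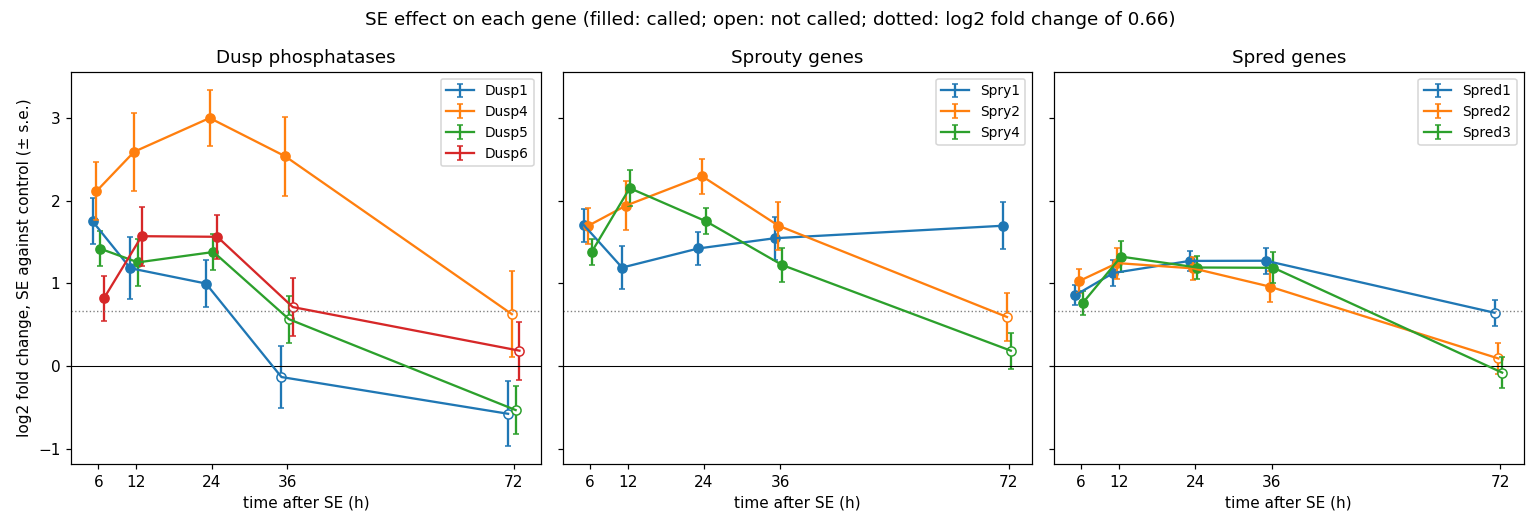
Log2 fold change of SE against control (vertical axis, ± s.e. of the fit) by time after SE (horizontal axis, h), with filled points for called genes and open points for the rest, and a dotted line at 0.66. Dusp4 reached the highest values, up to 3.00 at 24 h, and Spry1 was the gene still called at 72 h.

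Dusp4 had the largest fitted log2FC of the 10 at each of the 4 times up to 36 h, but at 12 h that place rested on 1 library. Its 9 control libraries lay between 4.77 and 16.3 CPM. SE 6 h libraries held 41.8, 38.9 and 52.7 CPM, SE 12 h libraries 35.5, 146 and 61.2 CPM, and SE 24 h libraries 36.5, 51.3 and 157 CPM. Every one of these was above every control, with 1 library at 12 h and 1 at 24 h more than 2 times higher than the other libraries of their group. SE 36 h libraries held 45.3, 80.2 and 51.8 CPM, and SE 72 h libraries 10.9, 9.63 and 18.4 CPM, which overlapped the controls. By edgeR the log2FC from 6 to 36 h was, in turn, 2.11 ± 0.35 (adjusted p = 9.52e-05), 2.59 ± 0.47 (0.000279), 3.00 ± 0.34 (8.3e-07) and 2.54 ± 0.48 (0.000401). At 72 h it was 0.63 ± 0.52 (adjusted p = 0.401). Without SE 12 h replicate 2 the 12 h value was 1.86, below the 2.02 of Spry4 in the same fit, and without SE 24 h replicate 3 the 24 h value was 2.10, and both were still called.

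Dusp1, an immediate early gene, had its highest group mean at the first time point, where SE 6 h replicate 3 was far above the other libraries. The SE 6 h and SE 12 h libraries overlapped, and their difference was not called (log2FC -0.63 ± 0.36, edgeR adjusted p = 0.348). The 9 controls ranged from 13.3 to 43.6 CPM with a median of 25.3 CPM. SE 6 h libraries held 43.1, 75.7 and 147 CPM, SE 12 h libraries 36.8, 61.0 and 80.1 CPM and SE 24 h libraries 47.1, 44.2 and 67.5 CPM. The lowest SE library at 6 h overlapped the controls, and at 24 h the lowest was just above the highest control. SE 36 h libraries (21.9, 35.2 and 20.97 CPM) and SE 72 h libraries (19.6, 13.4 and 19.8 CPM) lay within the control range. In the first day the log2FC was, in order of time, 1.75 ± 0.28 (edgeR adjusted p = 6.49e-05), 1.18 ± 0.37 (0.0165) and 1.00 ± 0.29 (0.00912). It was -0.13 ± 0.37 at 36 h (0.823) and -0.58 ± 0.39 at 72 h (0.29). Each of these values moved with single libraries. Without SE 6 h replicate 3 the 6 h value was 1.14, and without the 6 libraries with ganglion markers it was 0.94, both still called. At 12 h the call was lost without SE 12 h replicate 3 (0.91, adjusted p = 0.0957), Ctr 12 h replicate 1 (1.14, 0.0516) or Ctr 12 h replicate 3 (1.02, 0.0765), and at 24 h without SE 24 h replicate 3 (0.78, 0.0879). With the number range as a factor, the 24 h value fell to 0.29 (adjusted p = 0.717) and the 12 h value to 0.87 (0.169).

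Dusp5, the nuclear phosphatase of ERK, rose 2.67, 2.38 and 2.60 times at 6, 12 and 24 h (edgeR adjusted p at most 0.0016). Its controls ranged from 20.1 to 31.6 CPM. SE 6 h libraries held 40.4, 68.8 and 86.5 CPM, SE 12 h libraries 55.2, 45.7 and 70.1 CPM and SE 24 h libraries 45.1, 55.2 and 89.9 CPM, all above all controls. SE 36 h libraries (25.8, 30.6 and 37.5 CPM) were above the 3 Ctr 36 h libraries (20.3, 23.02 and 20.2 CPM), but the log2FC of 0.57 ± 0.28 was not called (edgeR adjusted p = 0.136). SE 72 h libraries held 13.9, 18.7 and 27.2 CPM beside 31.6, 25.2 and 29.6 CPM in Ctr 72 h, a log2FC of -0.53 ± 0.29 (adjusted p = 0.184).

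Dusp6, the cytoplasmic ERK phosphatase, overlapped its controls at 6 h. SE 6 h libraries held 68.7, 146 and 212 CPM beside 40.2 to 117 CPM in the 9 controls. The log2FC of 0.82 ± 0.27 (edgeR adjusted p = 0.0213) lost its call without SE 6 h replicate 3 (0.41, adjusted p = 0.315) or replicate 2 (0.80, 0.0684), and when Ctr 36 h (0.34, 0.485) or Ctr 72 h (0.80, 0.0912) stood alone as the control. At 12 h the SE libraries (172, 181 and 154 CPM) were all above the Ctr 12 h libraries, a log2FC of 1.57 ± 0.35 (adjusted p = 0.0017). At 24 h they held 207, 146 and 363 CPM, all above all controls, with a log2FC of 1.56 ± 0.26 (8.87e-05). At 36 h the SE libraries (163, 196 and 194 CPM) were all above the 3 Ctr 36 h libraries, and Ctr 36 h had the highest mean of the control groups. The log2FC was 0.71 ± 0.35 (0.127) and was not called. It was called in 1 of 7 fits that left out 1 library (without Ctr 72 h replicate 2, 0.71, 0.0371) and in 2 of 13 other alternatives. These were a fit to the compared groups only (0.73, 0.000134) and scaling by library size alone (0.84, 0.0492). At 72 h the log2FC was 0.19 ± 0.35 (0.741).

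Among the sprouty genes Spry2 and Spry4 shared a rise in the first day and a smaller difference by 72 h. Spry2 ranged from 33.1 to 49.5 CPM in the controls and held 88.6, 107 and 187 CPM at SE 6 h, 115, 138 and 195 CPM at SE 12 h, and 170, 138 and 275 CPM at SE 24 h. Its SE 36 h libraries held 97.8, 148 and 118 CPM, again above all controls, and those of SE 72 h held 45.7, 63.0 and 85.5 CPM, which overlapped them. The Spry2 log2FC was 1.69 ± 0.22, 1.94 ± 0.29, 2.30 ± 0.21 and 1.70 ± 0.29 from 6 to 36 h, with edgeR adjusted p of at most 0.000157, and 0.59 ± 0.29 at 72 h (adjusted p = 0.142). Spry4 ranged from 11.6 to 23.7 CPM in the controls and held 36.8, 41.3 and 59.0 CPM at SE 6 h and 62.8, 85.0 and 68.6 CPM at SE 12 h. At SE 24 h it held 62.3, 52.7 and 63.3 CPM, at SE 36 h 39.6, 44.3 and 37.2 CPM and at SE 72 h 19.8, 18.1 and 28.1 CPM. All libraries up to 36 h were above all controls, and those of 72 h were not. Its log2FC was 1.38 ± 0.16, 2.15 ± 0.21, 1.75 ± 0.16 and 1.22 ± 0.21 from 6 to 36 h (edgeR adjusted p at most 0.000169), and 0.19 ± 0.22 at 72 h (0.569).

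Spry1, the least abundant of the 10 genes, was higher than control at all 5 times. The 9 controls held 2.39 to 10.9 CPM with a median of 6.37 CPM. The SE libraries held 17.5, 24.3 and 24.7 CPM at 6 h, 15.4, 16.9 and 25.6 CPM at 12 h and 14.1, 22.2 and 17.9 CPM at 24 h. At 36 h they held 22.7, 19.2 and 17.2 CPM and at 72 h 19.3, 16.9 and 18.7 CPM. All 15 SE libraries were above all 9 controls. The log2FC was 1.70 ± 0.20, 1.19 ± 0.26, 1.42 ± 0.20 and 1.55 ± 0.26 from 6 to 36 h (edgeR adjusted p at most 0.00117) and 1.70 ± 0.29 at 72 h (0.000165).

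The 72 h value of Spry1 rests on a thin control group. Ctr 72 h held 129, 14 and 12 counts of Spry1, which is 10.9, 2.39 and 4.50 CPM. Without Ctr 72 h replicate 2, the library with ganglion markers, the log2FC was 1.12 (edgeR adjusted p = 0.0147), and without Ctr 72 h replicate 1 it was 2.49 (2.4e-05). It was 1.61 with the number range as a factor (adjusted p = 0.0534) and was not called. With the 6 libraries with ganglion markers left out, which leaves 1 library at SE 72 h, the Spry1 log2FC was 1.12. In that fit the 72 h log2FC was 0.96 for Spry2 and 0.74 for Spred1. Summed microglial markers (Aif1, Csf1r, C1qa, C1qb, Cx3cr1, P2ry12, Tmem119) were 1308 to 1864 CPM in SE 72 h and 316 to 383 CPM in Ctr 72 h, and 209 to 232 CPM in SE 6 h. Summed vascular markers (Cldn5, Pecam1, Flt1, Tek, Pdgfrb) were 260 to 387 CPM in all SE libraries and 154 to 208 CPM in all controls. Of these 5 vascular markers, 2, 2, 4, 2 and 2 were called higher from 6 to 72 h and 1, 0, 0, 0 and 0 lower. The percentages of all genes are those given above. Summed astrocyte markers were likewise higher in all SE libraries than in all controls, with single markers going both ways, as given above. The part of microglial, vascular and astrocyte markers in the Spry1 levels was not tested.

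**Figure D3:**
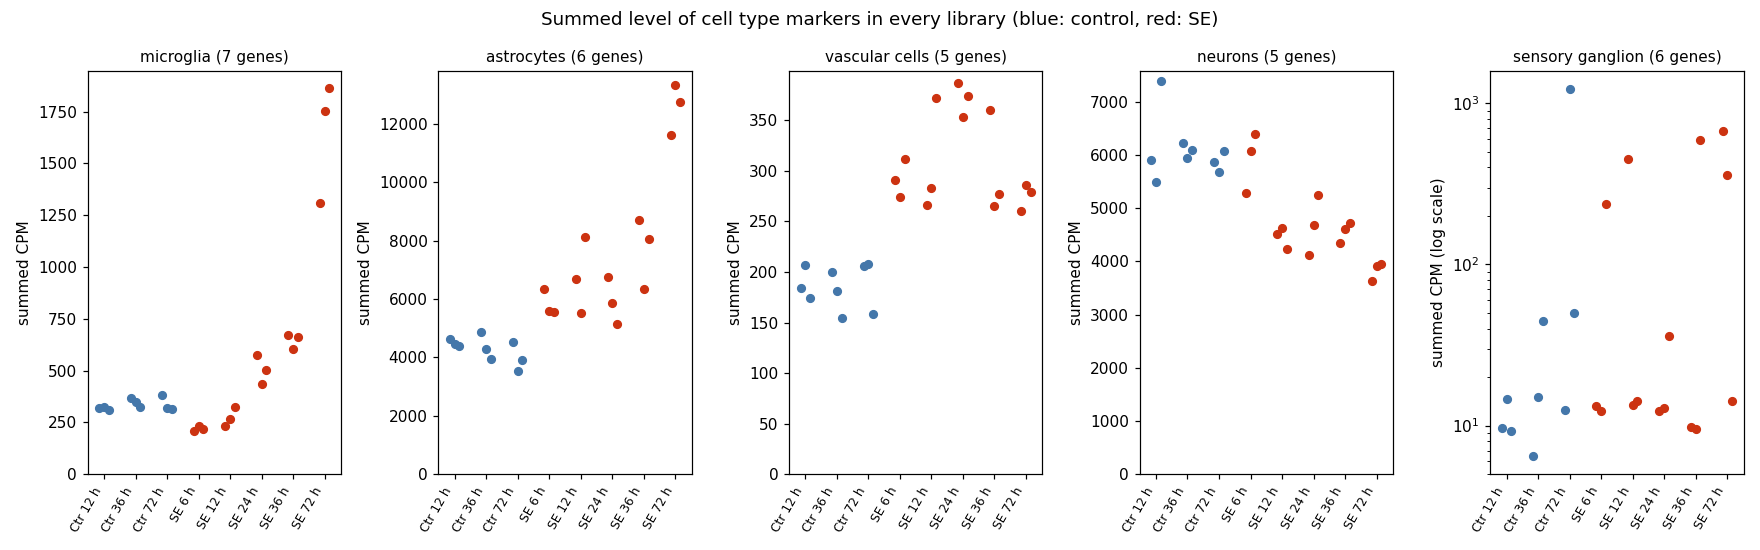
Summed CPM of the marker genes of 5 cell types (vertical axes, from 0 except for the sensory ganglion panel, which is on a log scale) in every library of the 8 groups, with a point for each library. Microglial markers reached 1308 to 1864 CPM at SE 72 h, and 6 libraries held over 200 CPM of sensory ganglion markers.

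Per length of exon, the Spred genes were among the most abundant of the 10 in control CA1. Spred1 held 147 to 206 CPM in the 9 controls, and all 15 SE libraries were above them. It held 293, 340 and 329 CPM at SE 6 h, 399, 326 and 392 CPM at SE 12 h and 382, 336 and 562 CPM at SE 24 h. The highest group mean was that of SE 36 h, with libraries at 472, 522 and 438 CPM, and at SE 72 h the libraries held 227, 256 and 289 CPM. The log2FC was 0.86 ± 0.12, 1.13 ± 0.15, 1.27 ± 0.12 and 1.27 ± 0.16 from 6 to 36 h (edgeR adjusted p at most 1.57e-05). At 72 h the log2FC of 0.64 ± 0.16 had an adjusted p of 0.00404 and stayed just under the threshold on size. Scaling by library size alone (0.69) or leaving out Ctr 72 h replicate 1 (0.70), Ctr 72 h replicate 3 (0.67) or SE 72 h replicate 1 (0.73) took it over that threshold.

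Spred2 and Spred3 overlapped their controls at 72 h. Spred2 held 99.6 to 125 CPM in the controls and 204.7 to 335 CPM in the 12 SE libraries of 6 to 36 h, with no overlap. At SE 72 h its libraries held 81.5, 111 and 139 CPM. Its log2FC was 1.03 ± 0.14, 1.24 ± 0.19, 1.18 ± 0.14 and 0.96 ± 0.19 from 6 to 36 h (edgeR adjusted p at most 0.000522) and 0.09 ± 0.19 at 72 h (0.763). Spred3 held 73.2 to 109 CPM in the controls. Its SE 6 h libraries held 109, 169 and 172 CPM, of which the first overlapped the controls, and its SE 12 h libraries 198, 190 and 205 CPM. At SE 24 h it held 178, 209.7 and 215 CPM, at SE 36 h 239.6, 225 and 166 CPM and at SE 72 h 58.2, 95.4 and 118 CPM. Its log2FC was 0.77 ± 0.15, 1.32 ± 0.19, 1.19 ± 0.14 and 1.19 ± 0.19 from 6 to 36 h (adjusted p at most 0.000378) and -0.08 ± 0.19 at 72 h (0.799). Without SE 6 h replicate 3, which also held ganglion markers, the 6 h log2FC was 0.65, under the threshold. Spred3 shares 202 exon bases with Ggn on the other strand and Dusp1 shares 38 with Ergic1, and both partners are in the table. Other exon overlaps on the other strand are with genes of the GENCODE M39 annotation that have no row in the table. They are 909 bases for Spry1 (Gm42922), 685 and 94 for Dusp6 (Gm56965 and Gm34921), 564 for Spry2 (Gm62623), 555 for Dusp5 (Gm50394) and a further 211 for Spred3 (Gm73445). Strand was ignored in counting, so a part of the counts of these 6 genes is uncertain.

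Between consecutive SE times, calls among the 10 genes came at the last step, from 36 to 72 h, which was also the longest. The parts of its length and of the time of day at sampling were not tested. A gene was called here from a log2FC of 1 in size. None of the 10 was called at 12 h against 6 h (1.34% of all genes in either direction), 24 h against 12 h (3.18%) or 36 h against 24 h (0.529%), and edgeR gave 2, 0 and 4 of them an unadjusted p under 0.05. DESeq2 called 0, 0 and 1. At 72 h against 36 h all 10 log2FC were below 0, with a median of -0.90 beside 0.05 over all genes, and 3 were called lower (1.05% of all genes). All SE 72 h libraries were below all SE 36 h libraries for 8 of the 10, where this held for 13.2% of all genes. Dusp4 fell by 2.18 ± 0.47 on the log2 scale (edgeR adjusted p = 0.00575), Spred3 by 1.22 ± 0.19 (0.000398) and Spred2 by 1.06 ± 0.19 (0.00135). Spred1 (-0.89 ± 0.15, 0.00115), Spry4 (-0.87 ± 0.21, 0.0116) and Spry2 (-0.91 ± 0.28, 0.0467) passed on p and not on size, and Spry1 had -0.09 ± 0.25 (0.863). When SE 72 h replicate 1 was left out the count was 1, and when replicate 3 was left out it was 5. It was 0 with the 6 libraries with ganglion markers left out, which leaves 1 library at SE 72 h, assumed to vary like the other groups.

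Whether the SE effect itself differed between times was tested as a difference of log2FC at the matched times. From 12 to 36 h 0 of 10 genes were called by edgeR (3.38% of all genes in either direction), 2 with an unadjusted p under 0.05 (Dusp1 at -1.32 ± 0.53 and Spry4 at -0.93 ± 0.30), and DESeq2 called 1. From 12 to 72 h 7 of 10 had a smaller effect at the later time (6.31% of all genes lower). The difference was -1.97 ± 0.30 for Spry4 (edgeR adjusted p = 0.000246), -1.40 ± 0.27 for Spred3 (0.00127), -1.79 ± 0.40 for Dusp5 (0.00407) and -1.15 ± 0.26 for Spred2 (0.00451). It was -1.35 ± 0.41 for Spry2 (0.0239), -1.76 ± 0.54 for Dusp1 (0.0249) and -1.96 ± 0.70 for Dusp4 (0.0499). Leaving out each of 12 libraries in turn kept the call of Spry4, Spred3, Dusp5 and Spred2 every time, that of Spry2 and of Dusp1 in 8 of 12 fits and that of Dusp4 in 4. The Dusp4 difference was -1.24 without SE 12 h replicate 2 (adjusted p = 0.174), and it was also lost with no RUVr factor (-2.10, 0.0514), by limma-voom (-1.58, 0.276) and with no filter on low counts (-1.96, 0.0506). Dusp6 had -1.38 ± 0.50 (0.0511), Spred1 -0.48 ± 0.22 (0.118) and Spry1 0.51 ± 0.38 (0.363), and were not called. From 36 to 72 h Spred3 was called (-1.27 ± 0.27, 0.0108), 1 of 10 where 1.12% of all genes were lower. The count from 12 to 72 h was 4 when SE 12 h replicate 3 was left out and 2 with the number range as a factor. The count from 36 to 72 h was 5 when Ctr 72 h replicate 2 was left out, 2 when Ctr 72 h replicate 3 was, and 3 when SE 72 h replicate 3 was.

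Other brakes on the pathway were also called higher early, among 16 tested genes outside the 10 (further Dusp genes, Ras GTPase activating proteins and receptor inhibitors). Of these 8, 9, 7, 2 and 1 were called higher from 6 to 72 h, and 1, 2, 2, 1 and 2 lower, beside the percentages of all genes given above. Their median log2FC over the same times was 0.85, 0.90, 0.48, 0.17 and 0.02. Errfi1, an inhibitor of the EGF receptor, had a log2FC of 2.40 ± 0.32 at 6 h and 2.32 ± 0.45 at 12 h (edgeR adjusted p = 8.57e-06 and 0.000444), then -0.08 ± 0.43 at 36 h (0.912). Dusp9, another MAP kinase phosphatase, had 2.48 ± 0.67 at 12 h (0.00649), a call lost without SE 12 h replicate 2 (1.71, 0.0672). Lrig1, which lowers the level of receptors of the EGF family, had 1.68 ± 0.21 at 12 h and 2.64 ± 0.22 at 72 h and was called higher at each of the 5 times. Rasal1, a Ras GTPase activating protein, was lower at each of the 5 times, most at 36 h, where it fell by 2.47 ± 0.21 on the log2 scale (3.17e-08).

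**Figure D4:**
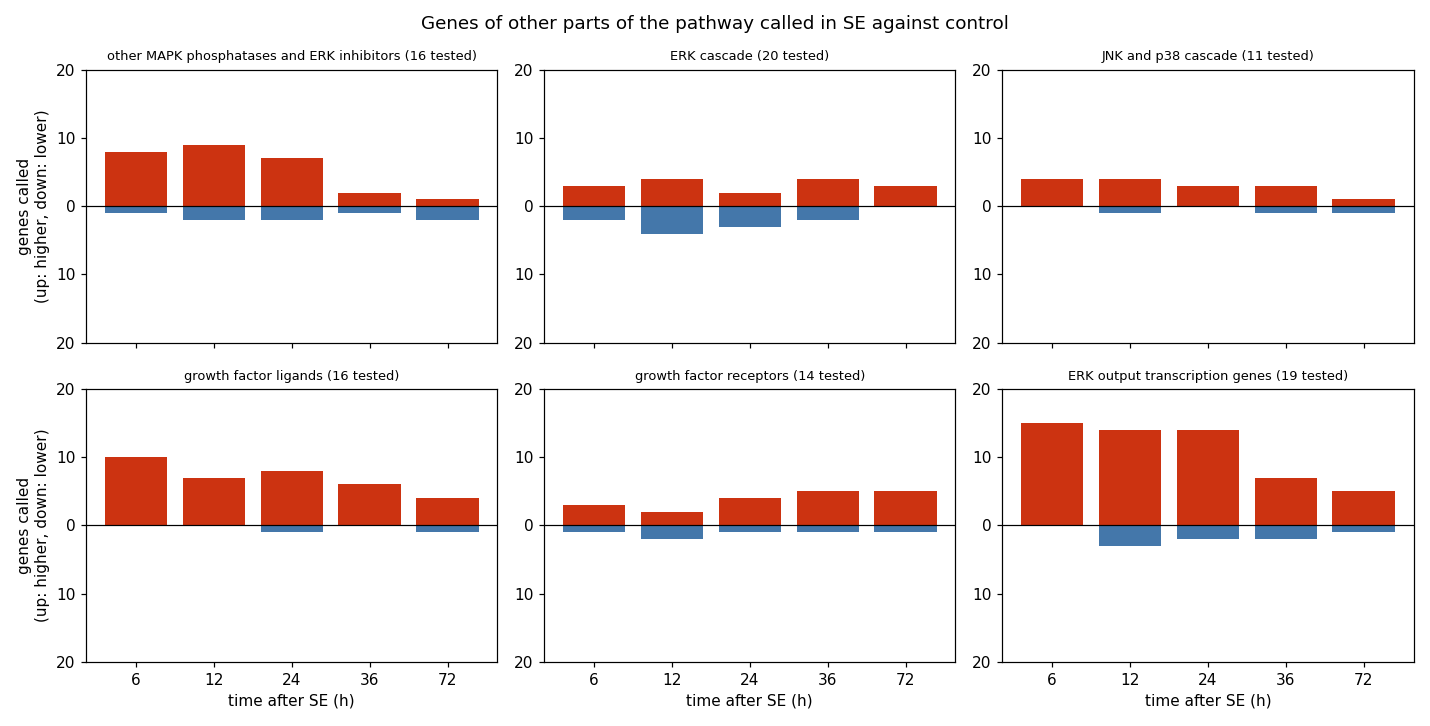
Number of genes called higher (red, above 0) and lower (blue, below 0) in SE against control (vertical axis) by time after SE (horizontal axis, h) in 6 gene lists of the pathway, with the number tested in each title. ERK output genes had 15 called higher at 6 h and 5 at 72 h.

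Genes that ERK signalling is known to induce were called higher mostly up to 24 h. Of 19 tested, 15, 14, 14, 7 and 5 were called higher from 6 to 72 h and 0, 3, 2, 2 and 1 lower, beside the percentages of all genes given above, with median log2FC of 2.03, 2.16, 1.97, 0.82 and -0.14. Fosl1, a Fos family transcription factor, had the largest log2FC, 6.18 ± 0.65 at 12 h (edgeR adjusted p = 8.53e-07). The value was 7.07 without Ctr 12 h replicate 3, and Fosl1 was still called at 72 h (3.53 ± 1.07, 0.0186). It dropped out of the fit with at least 10 counts in every library, so some libraries held few counts of it. Fos, Fosb and Egr2, immediate early transcription factors, had 3.33 ± 0.64, 4.34 ± 0.80 and 3.90 ± 0.83 at 12 h and were not called at 36 h (0.88 ± 0.59, 0.04 ± 0.71 and 1.07 ± 0.74) or at 72 h. Without SE 12 h replicate 3 the 12 h value of Fosb was 3.74.

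Upstream of the cascade stand the growth factors and their receptors. Of 16 ligands 10, 7, 8, 6 and 4 were called higher from 6 to 72 h, where 15.8%, 13.9%, 14.9%, 12.7% and 15.2% of all genes were, and 0, 0, 1, 0 and 1 lower, where 6.21%, 11.4%, 9.21%, 8.91% and 4.2% were. Hbegf, a ligand of the EGF receptor, had 3.58 ± 0.26 at 12 h and 2.72 ± 0.26 at 72 h, and Fgf2, a fibroblast growth factor, 3.23 ± 0.23 and 2.10 ± 0.24 (edgeR adjusted p at most 2.03e-06). Bdnf, the neurotrophin, had 2.89 ± 0.51 at 12 h (0.000182) and 1.02 ± 0.51 at 72 h (0.145). Areg, another EGF receptor ligand, had 3.16 ± 1.09 at 36 h (0.0319), a call kept in 2 of 7 fits that left out 1 library (adjusted p up to 0.0991) and lost by limma-voom (2.75, 0.0788) and with the number range as a factor (2.48, 0.0744). Of 14 receptors 3, 2, 4, 5 and 5 were called higher and 1, 2, 1, 1 and 1 lower, beside those same percentages of all genes. Fgfr1 was called at each time, with 1.37 ± 0.16 at 12 h and 1.11 ± 0.16 at 72 h, and Erbb4 was lower, with -1.70 ± 0.15 at 36 h (7.87e-08). Kdr, a receptor of vascular endothelial growth factor, had 1.34 ± 0.32 at 36 h (0.00309). Erbb2 had 1.64 ± 0.46 at 72 h (0.0117), and between 1.36 and 3.55 when 1 library was left out, the highest without Ctr 72 h replicate 1. Its call was lost without Ctr 72 h replicate 2 (1.42, 0.0525), with the number range as a factor (1.56, 0.181), with the compared groups only (1.66, 0.107) and without the 6 libraries with ganglion markers (1.48, 0.158).

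Between receptor and nucleus lie the kinases and adaptors. Of 20 genes of the ERK cascade 3, 4, 2, 4 and 3 were called higher, where 15.8%, 13.9%, 14.9%, 12.7% and 15.2% of all genes were, and 2, 4, 3, 2 and 0 lower, where 6.21%, 11.4%, 9.21%, 8.91% and 4.2% were, and their median log2FC lay between -0.14 and 0.11. Rps6ka3, a kinase activated by ERK, had 1.36 ± 0.12 at 12 h and 0.13 ± 0.12 at 72 h, and Rps6ka1, of the same family, 0.05 ± 0.19 and 1.98 ± 0.21 (edgeR adjusted p = 5.45e-07 at 72 h). Mapkapk2, a kinase downstream of p38 that was counted in this ERK list, had 1.36 ± 0.18 at 12 h, and the adaptor Shc1 1.06 ± 0.16 at 36 h. Of 11 genes of the JNK and p38 cascades 4, 4, 3, 3 and 1 were called higher and 0, 1, 0, 1 and 1 lower, beside the same percentages. Map2k3, which activates p38, had 1.87 ± 0.21 at 12 h (1.28e-06), and the p38 kinases Mapk12 and Mapk11 had 1.74 ± 0.31 and 1.41 ± 0.29 at 36 h. Map3k5 had 3.06 ± 0.27 at 6 h and 1.38 ± 0.37 at 12 h, the latter 0.54 and not called without SE 12 h replicate 3.

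Profiles across the 24 libraries were described by Pearson's r of log2 CPM, for all genes tested. Libraries of the same group share treatment and time, so r is given without a p. Dusp4 and Spred2 were the pair of the 10 that came among each other's nearest genes (r = 0.949, and 0.93 within the 15 SE libraries). Spry2 was nearest to Klf6 (0.97), Trib1 (0.961) and Inhba (0.951), and Dusp1 to Usp36 (0.90), Lsm12 (0.896) and Sik1 (0.894). Spred3 was nearest to Vgf (0.922), Spred1 to Krt75 (0.961), Spry4 to Eif3b (0.95), Dusp5 to Ppme1 (0.941) and Dusp6 to Nfkbiz (0.883). For Spry1 the nearest were Nfkb2 (0.959), Slc15a3 (0.938) and Ccl6 (0.936), but within the 15 SE libraries r was 0.515, 0.211 and 0.342.

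On the GRCm39 build and the GENCODE annotation the phosphatase genes lie at chr17:26724564-26781102 (Dusp1, minus strand), chr8:35274442-35287048 (Dusp4, plus), chr19:53517532-53530862 (Dusp5, plus) and chr10:99086564-99103361 (Dusp6, plus). Spry1 lies at chr3:37693897-37698755 (plus), Spry2 at chr14:106128766-106136446 (minus) and Spry4 on chromosome 18. Spred1 lies at chr2:116951524-117018277 (plus), Spred2 at chr11:19874355-19974442 (plus) and Spred3 at chr7:28857984-28869836 (minus). All 10 are protein coding.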

How the data were processed

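RNA of 24 CA1 libraries was analysed. The authors trimmed reads with Trim Galore 0.6.6, aligned them with STAR 2.7.8a to GRCm39, used SAMtools 1.10 and counted with HTSeq 0.13.5 (tools and build per the labels) on the GENCODE M26 annotation without regard to strand, and deposited whole-number counts per gene without normalization. The paper reports a filter on low counts ahead of its tests, and does not say whether one was applied before deposit. Of the 18647 deposited genes 18646 had at least 1 count.

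Of 18647 genes, 18552 were matched by Ensembl identifier to the GENCODE M39 annotation and 95 were not. The filter on low counts was filterByExpr with the 8 groups, and scaling was by TMM. The fit, in edgeR 4.0.16 (R 4.3.3), took in all 24 libraries, with group terms and 1 factor of unwanted variation estimated from residuals (RUVr). Adjusted p-values are Benjamini-Hochberg over the 18153 genes tested. CPM are per TMM-scaled library, and log2 CPM used a prior count of 2. Calls needed an adjusted p of at most 0.05 and a log2FC of 0.66 in size, or 1 between SE times. DESeq2 1.42.0 and limma-voom (limma 3.58.1) were alternatives. The procedure was tested on simulated data.

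The 10 genes and all lists were chosen with earlier results of these data known. All 10 are named in every comparison. Of each list the text names up to 4 genes, those called at 12, 36 or 72 h with the largest log2FC in size, and for each of the 10 up to 3 genes with the highest r. Spry3 and Ereg were not analysed here. The counts per library set the precision, and CPM of a few counts carry the largest counting error.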

Additional observations from a re-analysis of the deposited data

Results flagged for a closer look

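For 8 values the test of the difference between times passed, each with a smaller SE effect at 72 h. Against 12 h these were Dusp1 (-1.76), Dusp4 (-1.96), Dusp5 (-1.79), Spry2 (-1.35), Spry4 (-1.97), Spred2 (-1.15) and Spred3 (-1.40), and against 36 h Spred3 (-1.27), as differences of log2FC. The 72 h comparison uses Ctr 72 h, of which replicate 2 held 1224 CPM of sensory ganglion markers and replicate 3 had 2663936 counts. With the number range as a factor 2 of the 7 differences against 12 h were called, and the difference for Spred3 against 36 h was -1.29 (edgeR adjusted p = 0.116). No group had more than 3 libraries, so single libraries were not screened within groups.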

How the results depend on the processing

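The alternatives were other tests, scalings, filters, thresholds, factors and libraries left out. Counts of called genes from 6 to 36 h against control stayed within 1.5 times, between 7 and 10 of 10 at 6 h and 6 and 9 at 36 h. The later comparisons moved. At 72 h against control the count was 2 by library size alone, with at least 10 counts in every library and with the compared groups only. It was 0 with the number range as a factor. Leaving out the 6 libraries with over 200 CPM of ganglion markers leaves 1 library at SE 72 h, and its counts there are not given here. At 72 h against 36 h the count was 6 from a log2FC of 0.66, and at 36 h against 24 h it was 1 by DESeq2 and without those 6 libraries. For 36 against 12 h the effect differed in 1 gene by DESeq2 and without those 6, and in 2 with the compared groups only. For 72 against 12 h the count was 2 with the number range. For 72 against 36 h it was 3 by DESeq2, 2 with DESeq2 size factors, 4 by library size, 3 with at least 10 counts, 0 with the number range and 7 with the compared groups only. Among controls 1 gene was called with the compared groups only.

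Leaving out 1 library gave 1 to 2 calls at 72 h against control, 1 to 5 at 72 h against 36 h, 4 to 8 for 72 against 12 h, 1 to 5 for 72 against 36 h and 0 to 1 among controls.

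With the replicate block the count for 72 against 36 h was 3, and Dusp6 was called for 72 against 12 h (-1.44). No clear pairing by replicate number was seen. Same-number correlations ran from -0.201 to 0.181 with 4 of 9 over 0.1, and 5 of 9 SE libraries were closest to the control of their number. With 3 libraries per group this check cannot exclude a pairing.

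Of the 10 genes, the values that changed sign under an alternative were not called to begin with. For Spry1 the difference for 72 against 36 h was -0.0245 without the RUVr factor, -0.42 without both that factor and Ctr 72 h replicate 2, and -0.52 without the 6 libraries. For 72 against 12 h it was -0.0877 without the factor and that replicate and -0.21 without the 6. Spry4 at 72 h was -0.0261 with the number range, and Spred3 at 72 h was 0.14 without the 6. Leaving out 1 library gave -0.40 to 0.25 for Dusp1 at 36 h, -0.91 to 0.0289 for Dusp1 in 72 against 36 h, -0.0343 to 0.43 for Dusp6 at 72 h, -0.10 to 0.27 for Spred2 at 72 h, -0.31 to 0.17 for Spred3 at 72 h and -0.0378 to 0.36 for Spry4 at 72 h. For Spry1 it gave -0.19 to 0.0223 at SE 72 h against SE 36 h, -0.0841 to 1.30 for 72 against 12 h (called, without Ctr 72 h replicate 1) and -0.43 to 0.95 for 72 against 36 h. Library size alone moved the median log2FC of all genes to 0.13 at 36 h and 0.14 at 72 h, and Dusp5 (0.69) and Dusp6 (0.84) were then called at 36 h. The causes were not tested. Leaving out the 6 libraries, leaving out Ctr 72 h replicate 2 with the factor, and every alternative in the comparisons between control groups, were chosen after seeing the data.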
